A study of Homo sapiens with 4 samples.

Results

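The genes described here encode the enzymes that write, copy and remove DNA methylation in human cells: DNMT1, DNMT3A, DNMT3B, DNMT3L, TET1, TET2, TET3 and UHRF1. They were chosen by name as 8 of the 19821 protein-coding genes placed on hg38, and the naming rule uses no measured value, although earlier results of these data were known when the set was chosen. Each gene was given a window made of its RefSeq span and 20 kb on either side. These windows held 40 of the 34390 peaks called after YTHDF1 knockdown (KD) and 51 of the 32791 called in wild-type cells (WT).

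The study profiled H2AK119ub, histone H2A with a single ubiquitin on a lysine of its tail, by chromatin immunoprecipitation sequencing in H1, an established human embryonic stem cell line grown in mTeSR1. One group carried a short hairpin RNA against YTHDF1, a reader of m6A in messenger RNA, and the other was wild type and untreated. Each group had 1 H2AK119ub library, so no spread between replicates is known, no test was possible and every value below is a description of these libraries. The sources used here do not say whether WT cells received a control hairpin or whether KD cells are 1 clone. Peak lists hold no RNA values, so neither the loss of YTHDF1 nor the stem cell identity was checked, and a shorter peak cannot be told apart as fewer cells with the mark or less of the mark per cell. Read depth is unknown, so a region without a peak may lie just under the calling threshold.

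DNMT3A and DNMT3B place methyl groups on unmethylated CpG sites, and DNMT3L is a catalytically inactive partner that stimulates them. DNMT1 copies methylation to the new strand after replication, where UHRF1 brings it to hemimethylated CpG sites. The TET dioxygenases oxidise 5-methylcytosine and so start its removal, and TET1 is abundant in embryonic stem cells. H2AK119ub is deposited by Polycomb repressive complex 1 (PRC1), often at CpG islands, and the long isoform of DNMT3A is known to bind nucleosomes that carry it. The mark is therefore both a feature of these loci and, for DNMT3A, a ligand of the protein.

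Most annotated starts of these genes lay inside peaks. Of the 7 starts with fewer CG dinucleotides than the median start, 4 lay wholly in peaks in both lists, at DNMT3A, TET1 and TET2, and 3 did not in KD cells, at DNMT3B and inside TET1. RefSeq start records matched 7 of the 8 genes, with 18 starts in all, and DNMT3L had no entry. The 250 bases before a start lay wholly in peaks at 15 of these starts in the KD list and 16 in the WT list. The 6 stretches below, from the RefSeq promoter table of GRCh38.p14 (coordinates shared with hg38), show the starts that the results turn on. They are the outer and inner starts of DNMT3A, the inner start of DNMT3B where the lists differ, the outer start of TET1 and its inner start outside all peaks, and a UHRF1 start. Each is written 5′ to 3′ on the strand of its gene, with CG dinucleotides in capitals.
DNMT3A outer start, chr2:25342591-25342840, minus strand: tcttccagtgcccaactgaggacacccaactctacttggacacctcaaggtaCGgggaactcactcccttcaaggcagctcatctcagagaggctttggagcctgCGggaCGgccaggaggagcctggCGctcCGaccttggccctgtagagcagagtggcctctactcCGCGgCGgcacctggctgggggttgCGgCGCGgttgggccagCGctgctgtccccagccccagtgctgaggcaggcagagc
DNMT3A inner start, chr2:25252316-25252565, minus strand: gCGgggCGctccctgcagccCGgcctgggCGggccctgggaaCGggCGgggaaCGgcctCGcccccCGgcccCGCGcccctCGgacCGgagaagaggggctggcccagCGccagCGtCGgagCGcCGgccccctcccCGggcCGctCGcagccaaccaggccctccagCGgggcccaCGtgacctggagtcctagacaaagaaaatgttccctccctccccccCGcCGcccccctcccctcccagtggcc
DNMT3B inner start, chr20:32779602-32779851, plus strand: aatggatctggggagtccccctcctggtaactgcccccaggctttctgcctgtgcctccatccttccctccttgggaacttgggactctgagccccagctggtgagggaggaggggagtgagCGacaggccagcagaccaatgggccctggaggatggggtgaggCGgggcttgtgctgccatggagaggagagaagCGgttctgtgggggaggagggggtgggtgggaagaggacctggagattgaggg
TET1 outer start, chr10:68560087-68560336, plus strand: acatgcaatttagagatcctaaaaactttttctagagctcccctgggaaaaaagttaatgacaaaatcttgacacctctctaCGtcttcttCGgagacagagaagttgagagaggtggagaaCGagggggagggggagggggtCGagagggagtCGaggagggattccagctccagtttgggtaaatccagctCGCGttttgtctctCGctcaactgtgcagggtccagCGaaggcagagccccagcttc
TET1 inner start, chr10:68600018-68600267, plus strand: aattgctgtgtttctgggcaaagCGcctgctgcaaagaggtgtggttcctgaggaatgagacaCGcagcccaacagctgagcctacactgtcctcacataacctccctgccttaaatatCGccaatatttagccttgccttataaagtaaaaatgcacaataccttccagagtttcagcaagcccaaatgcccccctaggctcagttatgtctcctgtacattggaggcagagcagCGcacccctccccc
UHRF1 inner start, chr19:4909251-4909500, plus strand: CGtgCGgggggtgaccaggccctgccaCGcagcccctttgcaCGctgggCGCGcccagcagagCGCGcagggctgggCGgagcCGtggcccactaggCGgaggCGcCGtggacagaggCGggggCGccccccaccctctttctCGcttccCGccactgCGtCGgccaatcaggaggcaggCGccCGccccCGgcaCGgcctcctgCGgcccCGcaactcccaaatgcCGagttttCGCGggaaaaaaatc

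The DNMT3A outer stretch held 12 CG dinucleotides and the inner stretch, about 90 kb into the gene span, held 25. Both were wholly inside peaks in each list. The inner starts belong to the region from which the short DNMT3A isoform is known to be transcribed. At DNMT3B the inner stretch held only 3 CG dinucleotides. The KD peak there ended at 32779800, before the start at 32779852, and took in 79.6% of the stretch, whereas the WT peak took in 100%. That gap is smaller than the 200 bp step of the peak positions. The TET1 outer stretch held 9 and lay inside peaks in each list, while the inner stretch held 4 and lay in none. A further inner TET1 start with 11 CG dinucleotides also lay in none. All 3 UHRF1 starts lay inside peaks in each list, the one printed with 28 CG dinucleotides and the richest with 41. The motif counted was CG, which reads the same on both strands, and 96.8% of the 22132 starts of protein-coding genes held at least 1.

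Across all protein-coding starts, 60.7% lay wholly in KD peaks and 60.6% in WT peaks. That share was 16.8% in KD cells and 18.4% in WT cells for starts with up to 4 CG dinucleotides. It was 90.8% in each list for starts with 30 or more. The median CG count was 21.5 at the starts of these genes and 16 at all starts. The 83.3% and 88.9% of these genes' starts that lay wholly in KD and WT peaks are therefore to be read beside a CG content that is above the median, and several starts of 1 gene share the same peak.

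**Figure D1:**
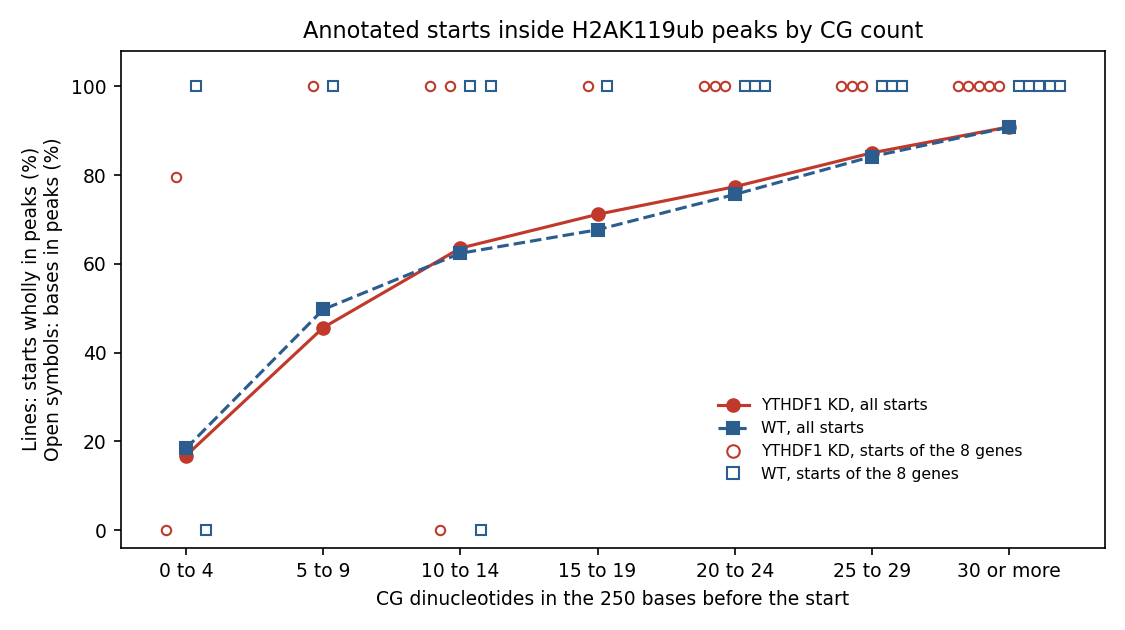
Share of annotated starts whose preceding 250 bases lie wholly in H2AK119ub peaks (lines, %) by CG count, for YTHDF1 KD and WT, with the percent of bases in peaks at each of the 18 starts of the DNMT, TET and UHRF1 genes (open symbols, spread sideways). The lines climb from 16.8% (KD) and 18.4% (WT) to 90.8% in both, and the open symbols under 100% are the DNMT3B start in KD cells (79.6%) and the inner TET1 starts (0).

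All 8 genes had a peak in their window in both lists, as did 76% of all protein-coding genes. Over all protein-coding genes the share with a peak in the window was 79.8% in KD cells and 79.4% in WT cells. A peak lay within 2 kb of the 5′ end of the gene span at 7 of the 8 genes in KD cells and at 8 in WT cells, against 67.2% of all protein-coding genes in KD cells and 66.8% in WT cells. Both lists marked it at 7 genes, beside 61.9% of all protein-coding genes. UHRF1 was the gene marked in WT alone, a state found at 4.9% of all protein-coding genes, and none was marked in KD alone, beside 5.3%. Its KD peak began 3.32 kb past that end of the span. The first annotated start of UHRF1 lies 6.42 kb past it, inside peaks in each list. Within 5 kb of the 5′ end all 8 genes were marked in both lists. The share of all protein-coding genes was then 69.6% in KD cells and 69.0% in WT cells. For DNMT3L, whose strand is not in the tables used, either end was accepted.

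The part of the window inside peaks, here called the covered length, was shorter in KD cells at DNMT3A, DNMT3B, TET1, TET2 and UHRF1 and longer at DNMT1, DNMT3L and TET3. Added over the 8 windows it was 199 kb in KD cells and 256 kb in WT cells, a difference of -22.6%. Over the windows of all protein-coding genes the difference was -14.01%, and over all peaks the KD list covered 168 Mb and the WT list 195 Mb. Without DNMT3A, the gene with the most, the 7 others summed to 121 kb in KD cells and 154 kb in WT cells (-21.5%). The spans held 111 kb in KD cells and 157 kb in WT cells (-29.5%), beside -15.94% over the spans of all protein-coding genes. The flanks held 87.7 kb in KD cells and 99.1 kb in WT cells (-11.5%). The same value for the flanks of all protein-coding genes was not computed. DNMT3A supplied the largest part of the difference in the spans, and without it the other spans held 50.5 kb in KD cells and 76.7 kb in WT cells (-34.2%). When the WT list was shortened from its lowest scores until it covered no more than the KD list, the difference over the 8 windows was -14.3% and over all windows -4.22%.

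Of the 8 genes, 5 had a shorter and 3 a longer covered length in KD cells. Among the 15069 protein-coding genes covered in both lists, 65.7% had a shorter and 32.3% a longer one. TET1, TET2 and UHRF1 were past a fixed 1.5-fold difference on the side of a shorter length in KD cells, against 22.7% of all such genes, and none was past it on the longer side, against 9.84%. So short a list cannot be set apart from that background. The median ratio of KD to WT was 0.73 over the 8 genes and 0.88 over all genes covered in both lists.

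**Figure D2:**
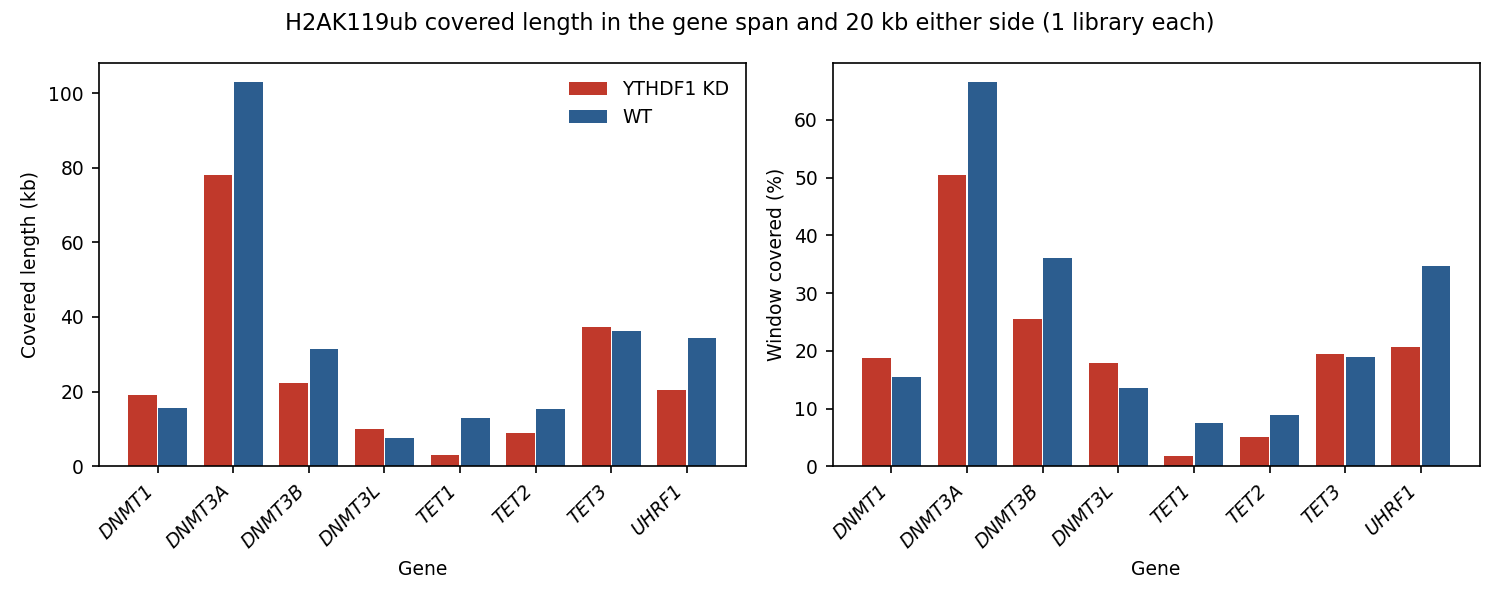
Covered length (left, kb) and share of the window covered (right, %) by H2AK119ub peaks at each gene, YTHDF1 KD beside WT, 1 library each and no error bars. DNMT3A stands highest in both lists (78.0 kb in KD cells and 103 kb in WT cells), and TET1 has the lowest share of its window covered in both (1.72% in KD cells and 7.46% in WT cells).

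Per length, the genes stood in the same order in both lists. DNMT3A had 50.4% of its window covered in KD cells and 66.5% in WT cells. DNMT3B had 25.5% in KD cells and 36.1% in WT cells, and UHRF1 20.6% in KD cells and 34.7% in WT cells. A middle group followed, and its members had more covered in KD cells. TET3 had 19.4% in KD cells and 18.9% in WT cells, DNMT1 18.8% in KD cells and 15.4% in WT cells, and DNMT3L 17.8% in KD cells and 13.5% in WT cells. TET2 (5.06% in KD cells and 8.85% in WT cells) and TET1 (1.72% in KD cells and 7.46% in WT cells) stood last. No spread is known within a list, so whether neighbours in this order, such as TET3, DNMT1 and DNMT3L in KD cells, differ beyond error was not tested. The median over all protein-coding genes was 8.77% in KD cells and 9.67% in WT cells, so 6 of these genes lay above it and TET2 and TET1 below it in each list.

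**Figure D3:**
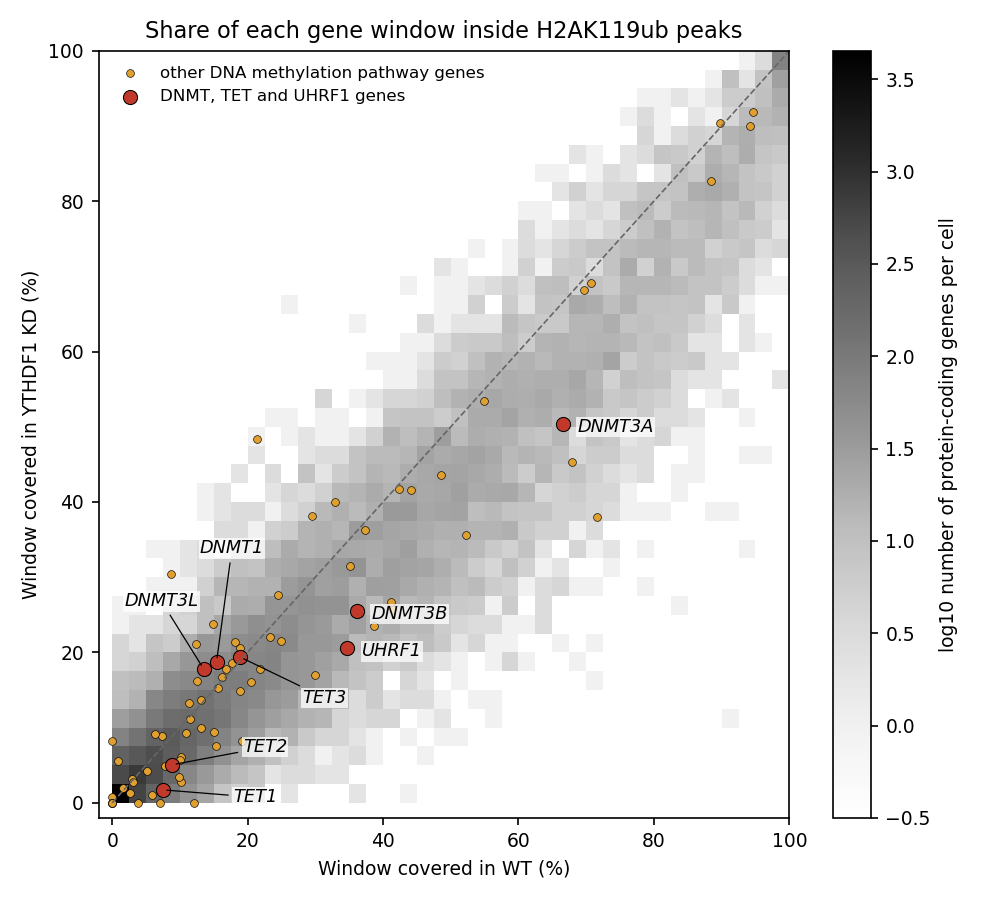
Share of each gene window inside peaks in YTHDF1 KD (vertical axis, %) and WT (horizontal axis, %). Grey cells count the 19821 protein-coding genes on a log10 scale; red points are the DNMT, TET and UHRF1 genes, and orange points are the 69 other DNA methylation pathway genes, with DNMT1, DNMT3L and TET3 above the dashed line of equality and the other 5 red points under it.

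Among the writers of new methylation, DNMT3A (chromosome 2, 25227874 to 25342590) had the greatest covered length of the 8 genes in both lists, in a chain of peaks along most of the gene. Its window held 16 peaks with 78.0 kb in KD cells and 17 peaks with 103 kb in WT cells. The gene span accounted for 60.3 kb in KD cells and 80.6 kb in WT cells. Upstream of the gene the order was the opposite, with 15.4 kb in KD cells and 14 kb in WT cells. The peak at the outer starts measured 8.6 kb in both lists and was displaced by 0.6 kb. Its score, the authors' own value per peak and usable only for ranking within a list, was 161 in KD cells, where 96.2% of peaks scored lower. In WT cells it was at the ceiling of 1000, where 97.0% scored lower.

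At the inner DNMT3A starts the WT list had 1 peak of 18.6 kb (25246401 to 25265000). The KD list had 2 peaks in that place, of 6.6 kb (25248801 to 25255400) and 8 kb (25256201 to 25264200), and the first of them held the starts. Beyond a WT peak of 1.8 kb, one of 13.4 kb (25270801 to 25284200) met 3 KD peaks of 5.4, 7.8 and 1.8 kb, the first of which also touched that smaller WT peak. A WT peak of 9 kb farther along faced a KD peak of 2.6 kb. The WT peaks of 4 kb (25300801 to 25304800) and 2.4 kb (25326601 to 25329000) inside the gene, and one of 3.2 kb past its 3′ end, touched no KD peak. Every KD peak of the window touched a WT peak. The window edge falls in marked DNA here: at the far 3′ side a WT peak reached 1.93 kb into the window, and the KD peak at the same place ended 1.07 kb outside it. At the 5′ side a WT peak of 21.4 kb had 1.99 kb in the window and a KD peak of 10.4 kb had 5.79 kb.

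DNMT3B (chromosome 20, 32762385 to 32809356), the methyltransferase gene that is strongly expressed in embryonic stem cells, had 22.2 kb covered in KD cells and 31.4 kb in WT cells, in 5 KD and 8 WT peaks. The peak over the 5′ end of the span was wider in KD cells, 5.6 kb against 4.6 kb in WT cells. At the inner start the reverse held, with 3.6 kb in KD cells and 5.4 kb in WT cells. The segment with the largest difference lay upstream, where 10.6 kb in KD cells stood against 15.2 kb in WT cells. WT peaks of 2.4 kb just before the 5′ end and of 1.6 kb inside the gene touched no KD peak. The outermost peaks on both sides also lie at COMMD7 and MAPRE1, the neighbouring genes.

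DNMT3L (chromosome 21, 44246339 to 44261897) differed in the opposite direction. In kb it shared the least DNA between the lists, just under the 2.8 kb of TET1. DNMT3L had 9.9 kb in KD cells and 7.5 kb in WT cells, in 3 peaks each. Only 2.7 kb was common to both, 27.3% of the KD length and 36% of the WT length. The share of the WT length was lower at TET1, 21.5%. Inside DNMT3L, a KD peak of 5.4 kb overlapped 25% of a WT peak of 3.2 kb that extended past the end of the span. A WT peak of 2.4 kb in the span and a KD peak of 2.6 kb outside it touched nothing in the other list. A further peak of each list crossed the window edge, 8 kb wide in KD cells and 13.4 kb in WT cells, each with 1.9 kb inside. With the lower-scoring 50% of each list left out, DNMT3L had 7.3 kb in KD cells and 1.9 kb in WT cells, a ratio of 3.85. The WT length left was that edge peak alone, because both WT peaks wholly inside the window, with scores of 9.07 and 9.53, were left out. The KD length left was the edge peak and the peak of 5.4 kb.

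Of the maintenance pair, UHRF1 (chromosome 19, 4903080 to 4962154) had 20.4 kb covered in KD cells and 34.4 kb in WT cells, a 1.69-fold difference. The peak at its starts measured 5.8 kb in KD cells (4906401 to 4912200) and 9.8 kb in WT cells (4902601 to 4912400). Their downstream ends lay 0.2 kb apart, and the upstream end lay 3.8 kb farther into the gene in KD cells. The KD peak thus began more than 2 kb past the 5′ end of the span but still held all 3 annotated starts. WT peaks of 3.6 kb and 2.2 kb within the gene touched no KD peak. In the gene span alone UHRF1 had 5.8 kb in KD cells and 15.1 kb in WT cells, a ratio of 0.38. Downstream, where the window meets the histone demethylase gene KDM4B, the lists had 11.8 kb in KD cells and 12 kb in WT cells. All 3 starts and the whole peak around them in each list also lie in ARRDC5, which overlaps UHRF1. The peak can therefore not be assigned to UHRF1 alone.

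DNMT1 (chromosome 19, 10133346 to 10194953) had 19.1 kb covered in KD cells and 15.7 kb in WT cells. Little of the gene span was covered in either list, 4.35 kb in KD cells and 4.15 kb in WT cells. The peak over its start measured 8.8 kb in KD cells (10190601 to 10199400) and 3 kb in WT cells (10193201 to 10196200), so it was extended on both sides. A WT peak of 2.4 kb inside the gene touched no KD peak. The covered DNA downstream, 7.46 kb in KD cells and 6.06 kb in WT cells, lies at EIF3G and P2RY11. Within 10 kb of the gene the difference was larger, with 11.6 kb in KD cells and 5.95 kb in WT cells. That limit cut off most of an upstream WT peak of 4.2 kb (10204401 to 10208600). It kept nearly all of a KD peak of 2.8 kb (10202201 to 10205000), so the larger difference depends on where the limit falls. In the gene span alone the ratio of KD to WT was 1.05.

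**Figure D4:**
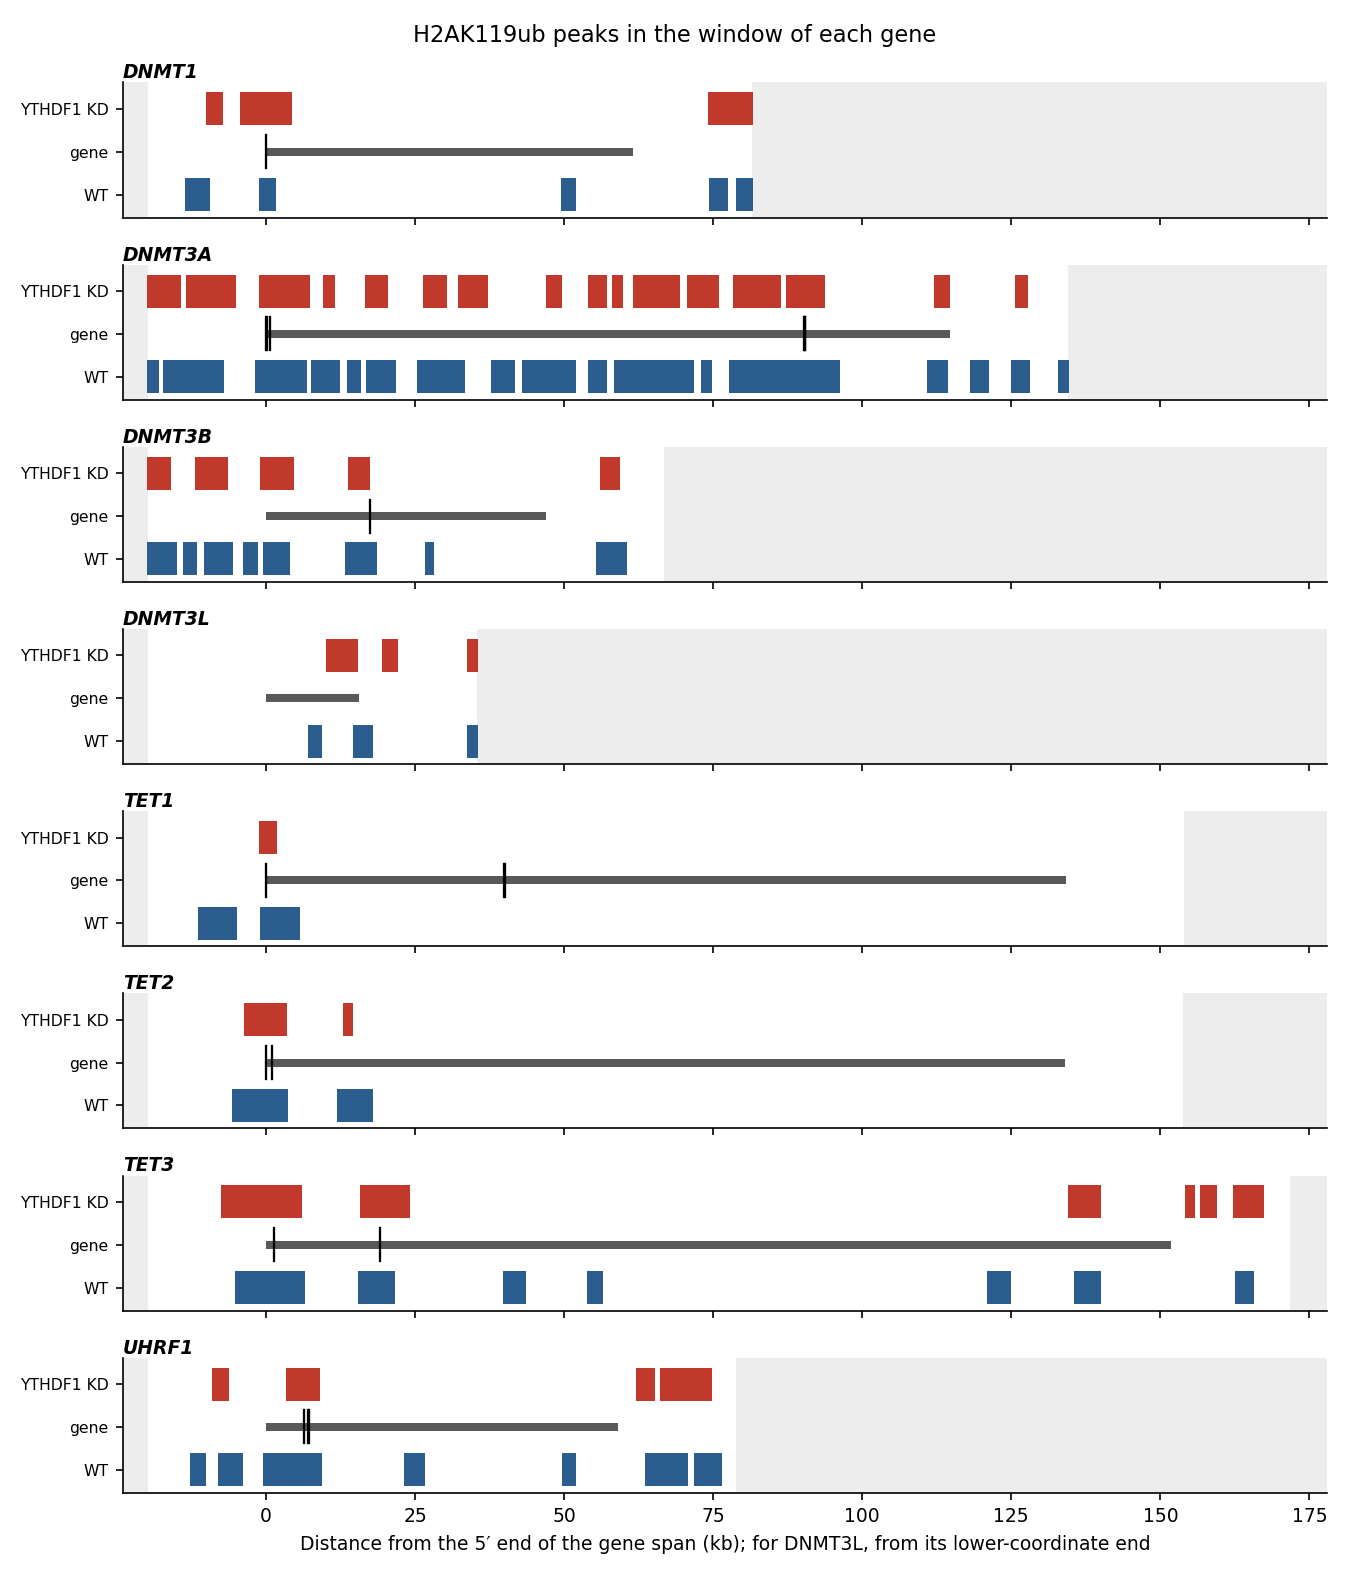
Peaks of the YTHDF1 KD list (red, above each gene) and the WT list (blue, below it) in the window of each gene, in kb from the 5′ end (for DNMT3L, whose strand is not given, from the lower coordinate); grey bars are gene spans, black ticks annotated starts, and shaded areas lie outside the window. DNMT3A carries peaks along most of its span, while those of TET1 and TET2 stay near the 5′ end.

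The removers of methylation had peaks at their outermost starts, and TET1 and TET2 had few elsewhere. TET1 (chromosome 10, 68560337 to 68694487) had 1 peak of 3 kb in KD cells (68559201 to 68562200). WT cells had a peak of 6.6 kb at that place (68559401 to 68566000) and a second of 6.4 kb upstream (68549001 to 68555400), 13 kb in all. The difference was 4.33-fold, and 0.856% of the genes covered in both lists had a lower ratio of KD to WT. It rests in part on the upstream peak, whose score of 3.76 was among the lowest of the WT list (4.84% scored lower). In the upper 50% of peaks by score TET1 had 3 kb in KD cells and 6.6 kb in WT cells, a ratio of 0.45.

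TET2 (chromosome 4, 105145875 to 105279803) had the same 2 places marked in each list, and both were narrower in KD cells. At the starts the peak measured 7.2 kb in KD cells and 9.4 kb in WT cells. Farther into the gene it measured 1.6 kb in KD cells and 6 kb in WT cells. All of the KD length of 8.8 kb lay inside the 15.4 kb of WT cells, a 1.75-fold difference. A predicted gene, LOC124900868, overlaps this part of TET2.

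TET3 (chromosome 2, 73983631 to 74135498) was the gene with the most nearly equal totals, 37.2 kb in KD cells and 36.2 kb in WT cells, but these hid opposite differences. Inside the span it had 19.8 kb in KD cells and 27.8 kb in WT cells, a ratio of 0.71. In the 20 kb downstream it had 9.8 kb in KD cells and 3.2 kb in WT cells, and those peaks lie at BOLA3. Upstream it had 7.63 kb in KD cells and 5.23 kb in WT cells. The peaks at its starts were wider in KD cells, 13.6 kb against 11.8 kb in WT cells at the first and 8.4 kb against 6.2 kb in WT cells at the second. The shorter length inside the span came with WT peaks of 3.8, 2.8 and 4 kb that touched no KD peak, with scores of 2.59, 4.95 and 2.04, of which the highest exceeded 9.4% of the WT list.

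**Figure D5:**
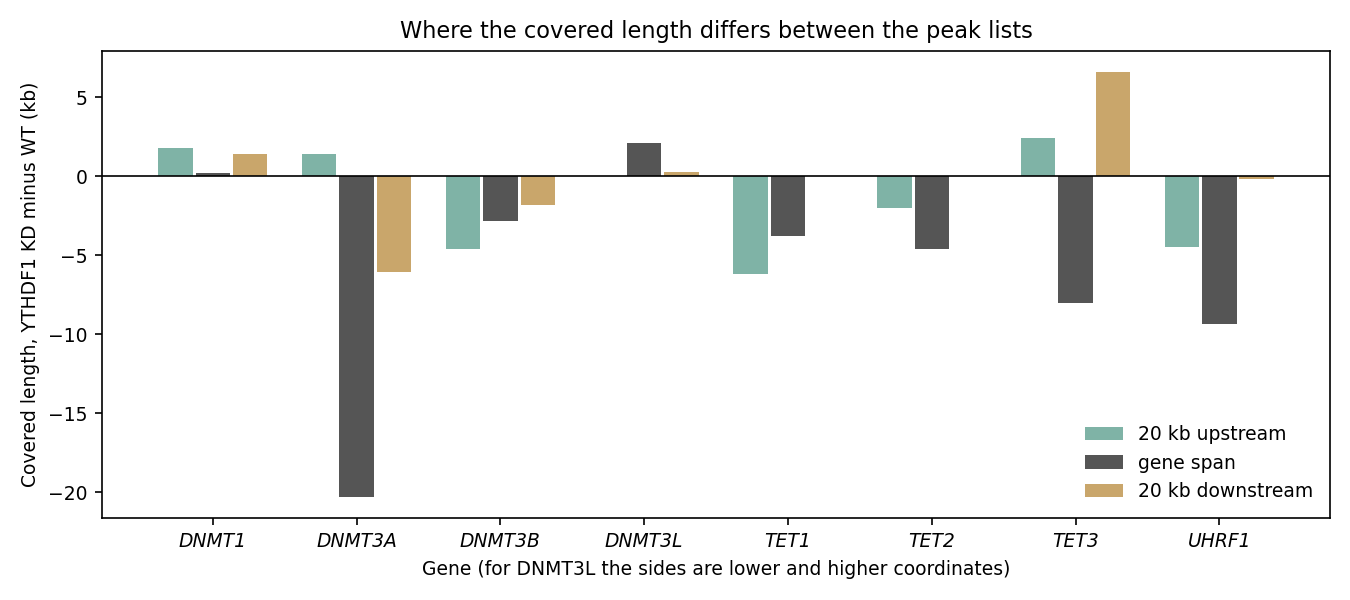
Difference in covered length, YTHDF1 KD minus WT (kb), in the 20 kb upstream, the gene span and the 20 kb downstream of each gene (for DNMT3L, the lower- and higher-coordinate sides). The span of DNMT3A (-20.3 kb) stands out, and TET3 is lower in its span (-8 kb) and higher downstream (6.6 kb).

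Most KD peaks in these windows lay where WT cells had one too. Of the 40 KD peaks, 37 (92.5%) overlapped a WT peak by 1 bp or more, against 74.1% of the whole KD list. DNMT3A alone supplied 16 of these 40 KD peaks, and all 16 overlapped a WT peak. Of the 51 WT peaks, 37 (72.5%) touched a KD peak, against 71.4% of the whole WT list. The KD share was not above its list among the upper 50% of peaks by score, where 76% of the KD peaks in these windows overlapped a WT peak, against 78.1% of all such KD peaks. The 3 KD peaks without a partner lay at TET3, 2 of them, and DNMT3L. The 14 WT peaks without a partner had a median width of 2.7 kb, against 5.2 kb for the 37 with one. In 23 places a single peak of each list touched only the other. The KD peak was narrower in 13 of these, wider in 8 and equal in 2, with a median width ratio of 0.77. Over the 16990 such pairs of the whole lists the KD peak was narrower in 59.8%, with a median ratio of 0.89. All 4 pairs at TET3 were wider in KD cells, and both pairs at TET2 and the single pair at TET1 were narrower.

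The other genes of the pathway, 69 readers, partners, repair enzymes and donors of methyl groups, were followed in the same windows. Of these, 60 were covered in both lists, 2 in KD alone (beside 3.81% of all protein-coding genes), 3 in WT alone (beside 3.34%) and 4 in neither. The 60 divided into 39 with a shorter and 21 with a longer length in KD cells. Past 1.5-fold, 15 (25%) were shorter and 5 (8.33%) longer, beside 22.7% shorter and 9.84% longer among all protein-coding genes covered in both. These shares are near those of all genes, and the sum over the 69 windows differed by -8.97%, less than the -14.01% over all genes.

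Among the maintenance partners, HELLS, a chromatin remodeller needed for methylation, had 3 kb in KD cells and 11 kb in WT cells. LIG1, which joins replicated DNA, had 22.5 kb in KD cells and 14.1 kb in WT cells. DPPA3, known in mouse to restrain UHRF1, had no covered DNA in KD cells and 5.57 kb in WT cells. No peak lay within 2 kb of its 5′ end in either list.

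In the list of methyl-CpG readers, ZBTB4 had 24.6 kb in KD cells and 46.4 kb in WT cells, and ZBTB33, which encodes Kaiso, none in KD cells and 1.8 kb in WT cells. MBD5, a member of the MBD domain family, had 4.4 kb in KD cells and none in WT cells. The CXXC list holds genes whose proteins bind unmethylated CpG sites and also BCOR, to which that trait does not apply. All 9 of its members were covered in both lists, beside 76% of all protein-coding genes. KDM2B, which recruits a form of PRC1 to CpG islands, had 31.8 kb in KD cells and 40.2 kb in WT cells. CXXC1, a subunit of the H3K4 methyltransferase complex, had 17.3 kb in KD cells and 13.4 kb in WT cells.

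Of the repair genes, TDG, the glycosylase that excises oxidised methylcytosine after TET action, had 5.2 kb in KD cells and none in WT cells. XRCC1, a scaffold of base excision repair, had 19.3 kb in KD cells and 29.7 kb in WT cells, and PARP1, a sensor of DNA breaks, 18.5 kb in KD cells and 10.8 kb in WT cells. In the targeting list, TRIM28, a corepressor of zinc finger proteins, had 21.1 kb in KD cells and 31.7 kb in WT cells. ZFP57, a zinc finger protein that protects imprints, had 23.6 kb in KD cells and 10.4 kb in WT cells. SUV39H1, an H3K9 methyltransferase, had none in KD cells and 3.8 kb in WT cells.

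Of the genes that supply methyl groups, MAT2A, which makes S-adenosylmethionine, had 14 kb in KD cells and 4 kb in WT cells, and SHMT1, an enzyme of the folate cycle, 6.2 kb in KD cells and 14.6 kb in WT cells. Of the TET partners and cofactor enzymes, IDH2, which makes the cosubstrate of the TET enzymes, had 13.96 kb in KD cells and 22.96 kb in WT cells. The corepressor gene SIN3A had 22.4 kb in KD cells and 21.2 kb in WT cells. By the smallest distance in the share of the window covered over both lists, the pathway gene most like DNMT3A was TRIM28 (45.3% in KD cells and 67.8% in WT cells). For DNMT3B and UHRF1 it was IDH2 (23.5% in KD cells and 38.6% in WT cells). For TET1 it was PSPC1, a partner of TET1 in stem cells (1.05% in KD cells and 5.93% in WT cells), and for TET2 it was QSER1 (4.86% in KD cells and 7.85% in WT cells). For TET3 it was NSD1, an H3K36 methyltransferase gene (20.5% in KD cells and 18.8% in WT cells). For DNMT1 it was SIN3A (17.7% in KD cells and 16.8% in WT cells), and for DNMT3L it was AHCY (16.2% in KD cells and 12.5% in WT cells). Likeness over 2 libraries is a coarse measure.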

How the data were processed

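H2AK119ub peak lists of 1 YTHDF1 knockdown and 1 wild-type library were used. The 2 input libraries are not analysed here. Per the submitters' processing notes, the build was hg38 and the tools included SICER 1.1, MACS2 2.1.0, Bowtie2 2.2.5, Trimmomatic 0.35, Picard and SAMtools 1.3.1. Which of them called the peaks is not given in the sources used. The deposited lists hold a chromosome, start, end, name, score and an unset strand per peak; the unit of the authors' score is not given, and it served only to rank or filter peaks within a list. It ran from 2.00 to a ceiling of 1000. Starts were multiples of 200 bp and ends lay 1 bp below one, so ends were read as inclusive, and positions are given from 1.

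Peaks on chromosomes 1 to 22 and X were kept (34390 of 34393 knockdown and 32791 of 32798 wild-type peaks). Gene spans came from RefSeq GRCh38.p14, without 153 protein-coding genes with scaffold coordinates. Strand came from the RefSeq promoter table, which had entries for 15812 of 19821 genes; for the others either end counted as the 5′ end. Covered length was computed in Python 3.11.15 with NumPy 2.4.6 and checked on simulated intervals. With 1 library a group there was no test. A fold of 1.5 was used to count genes. The 8 genes were picked by name and the pathway lists and settings were written down with earlier results of these data known. The alternatives without other coding genes and with equal cover were added later, after seeing the peak lists. The text names all 8 genes and, per pathway list, the genes with the most shortened and most lengthened cover (1 kb or more), genes covered in 1 list alone, and the pathway gene most like each of the 8.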

Additional observations from a re-analysis of the deposited data

How the results depend on the processing

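The summed covered length of the 8 windows was lower in KD cells under all 7 alternatives, with ratios of KD to WT from 0.70 (gene spans alone) to 0.86 (0.857, WT list cut to equal cover, an alternative chosen after seeing the data, as was leaving out the surroundings of other coding genes). That cut moved the median log2 ratio of all genes from -0.18 to -0.06. TET1 and TET2 were at least 1.5-fold shorter in KD cells under 7 of 7 alternatives and UHRF1 under 6; in the upper 50% of peaks by score its ratio was 0.68. Over all genes, 15.6% to 27.3% were that much shorter, 15.6% with equal cover and 27.3% in gene spans. DNMT3A passed that fold in the upper 50% by score and DNMT3B with gaps of up to 2 kb joined. Genes at least 1.5-fold longer numbered 0 in the main setting, 1 within 10 kb (DNMT1; 9.72% of all genes), 1 in the gene span alone (DNMT3L; 13.1%) and 2 in the upper 50% by score (DNMT1 and DNMT3L; 8.48%). TET3 turned to shorter in KD cells in some alternatives, with ratios of 0.970 within 10 kb, 0.712 in the span alone, 0.983 with peaks of 2 kb or wider and 0.849 without other coding genes. In the others it stayed longer, with ratios of 1.46 in the upper 50% by score, 1.45 with equal cover and 1.05 with gaps of up to 2 kb joined. With an overlap of 50% of each peak required, 55% of KD and 45.1% of WT peaks were shared, beside 45.3% of the whole KD list and 47.5% of the whole WT list. In the upper 50% by score 7 KD and 6 WT 5′ ends were marked, beside 51.0% of all genes in each list. The causes were not tested. No paired analysis was possible because each group has 1 library.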

Other observations

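Neighbouring genes, in windows of the same kind, differed between the lists in some cases and hardly in others. KDM4B, a histone demethylase gene next to UHRF1, had 56.4 kb covered in KD cells and 94.6 kb in WT cells, a ratio of 0.60, close to the 0.59 of UHRF1. The ratio of ARRDC5, which overlaps UHRF1, was 0.59, but both neighbours share part of their window with UHRF1. BOLA3, next to TET3, had 15.2 kb in KD cells and 7.6 kb in WT cells, and part of this is the downstream length of TET3. ICOSLG, which encodes a costimulatory ligand of T cells and lies beside DNMT3L, had 5.74 kb in KD cells and 2.4 kb in WT cells. Its window reaches into the DNMT3L span. The WT length is the peak of 2.4 kb in that span, and most of the KD length belongs to the DNMT3L peak of 5.4 kb. None of the covered DNA in the DNMT3L window lay within 2 kb of ICOSLG. COMMD7 beside DNMT3B had 16.5 kb in KD cells and 16.7 kb in WT cells. MAPRE1, on the other side of DNMT3B, had 5.2 kb in each. Both windows share peaks with that of DNMT3B. The KD length at MAPRE1 was a shared peak of 3.4 kb and a separate peak of 1.8 kb. Beside DNMT1, whose ratio of KD to WT was 1.22, the ratios were 1.03 at PPAN-P2RY11, 0.95 at P2RY11 and 0.94 at EIF3G. These windows also overlap that of DNMT1.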
